A study of Mus musculus with 2 samples.

Results

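The genes described are 9 cytosolic glutathione S-transferases, selected by gene symbol: Gsta1, Gsta2, Gsta3 and Gsta4 of the alpha class, Gstm1, Gstm3 and Gstm4 of the mu class, and Gstp2 and Gstp3 of the pi class. All 9 were among the 1448 genes deposited for small intestinal organoids, which are crypt-derived epithelial cultures grown in Matrigel with EGF, Noggin and R-spondin. AdipKO organoids came from Adipfl/flpVilli-CreT mice, in which a villin-driven Cre acts on a floxed adiponectin gene throughout the intestinal epithelium, and WT organoids came from Adipfl/fl mice with the same floxed gene and no Cre. The study asked how loss of epithelial adiponectin alters gene expression in such cultures. Each genotype was represented by 1 RNA library, so no value has a replicate check and no test between genotypes was possible. The sources used here do not state the age, sex or number of the mice that gave these cultures, or whether mice were pooled.

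Glutathione S-transferases join the tripeptide glutathione to electrophiles, which makes drugs, carcinogens and products of lipid peroxidation more soluble. The conjugates leave the cell through efflux pumps and are trimmed to mercapturates. In the gut these enzymes are abundant in absorptive enterocytes, and many of their genes respond to the transcription factor NRF2 and to the xenobiotic receptors. Alpha class enzymes also reduce lipid hydroperoxides, mu class enzymes are known for conjugating epoxides, and pi class enzymes act on many electrophilic carcinogens.

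The deposited values are estimated read counts, not scaled to library size. The table holds only genes that differed: no log2 ratio of the raw counts lay between -1.04 and 0.96, and genes inside that gap are not analysed here. The 1448 genes held 689005 counts for AdipKO and 802995 for WT, which are sums of a selected table and not library depths. Ratios are of unscaled counts and carry any difference in depth. Adipoq, the targeted gene, was not in the table, so genotypes were taken from the labels and could not be checked, and exchanged labels would turn every direction. Throughout, AdipKO and WT stand for the libraries so labelled. By RNA-seq and qRT-PCR, the study reported Lgr5, Tnfrsf19, Ascl2, Olfm4, Lyz1 and Mycl as raised in organoids lacking epithelial adiponectin. In the library labelled AdipKO all of these genes were lower, the opposite direction. By immunostaining, the study also reported more Lgr5-positive and more proliferating cells in such organoids. Mycl had 540 counts in AdipKO against 1234 in WT, and the counts of the other genes stand with the cell markers. Every direction given for the transferases holds only if the labels do. Intervals of ratios are exact 95% intervals and cover counting error only. In bulk cultures, more cells of a type and more RNA per cell cannot be told apart.

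Sequence comes before the values here because 3 members have decimals in their counts, as estimated counts have when reads that fit several genes are divided among them. Gsta4 (78191966 to 78209349), Gsta1 (78230669 to 78242683) and Gsta2 (78331018 to 78347192) lie on chromosome 9 of mm10, and Gm3776 and Gm10639, also listed genes, lie between Gsta1 and Gsta2. In the coding sequence, Gsta1 and Gm3776 differed at 2 of 672 aligned bases, Gsta1 and Gsta2 at 14 of 669, and Gsta2 and Gm10639 at 10 of 669. The first 120 coding bases, from GENCODE transcripts of GRCm38, show the likeness, with bases that differ from Gsta1 in capitals.

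Gsta1: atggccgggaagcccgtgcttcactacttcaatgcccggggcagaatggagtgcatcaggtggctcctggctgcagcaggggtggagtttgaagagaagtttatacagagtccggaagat
Gm3776: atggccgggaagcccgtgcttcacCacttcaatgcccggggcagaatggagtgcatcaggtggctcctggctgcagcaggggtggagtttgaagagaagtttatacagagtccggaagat
Gm10639: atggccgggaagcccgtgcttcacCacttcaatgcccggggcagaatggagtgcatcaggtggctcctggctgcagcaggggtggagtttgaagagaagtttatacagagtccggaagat
Gsta2: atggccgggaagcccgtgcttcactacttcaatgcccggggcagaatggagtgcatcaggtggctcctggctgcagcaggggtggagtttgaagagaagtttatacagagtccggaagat

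Gsta1 and Gsta2 were identical over this stretch, and Gm3776 and Gm10639 each had 1 differing base. Of the distinct 100-base stretches in the protein-coding transcripts of Gsta1, 81.8% also occurred in transcripts of another gene, and 71.3% occurred in Gm3776. The share was 24.8% for Gsta2, 85.5% for Gm3776 and 34.0% for Gm10639. The pi class had a similar pair. Gstp2 and its neighbour Gstp1, which was not in the table and was not analysed here, differed at 12 of 633 coding bases, and 42.2% of the 100-base stretches of Gstp2 were found elsewhere. Gstp3 shared none. The first 120 coding bases of the pi class genes follow, with bases that differ from Gstp2 in capitals.

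Gstp2: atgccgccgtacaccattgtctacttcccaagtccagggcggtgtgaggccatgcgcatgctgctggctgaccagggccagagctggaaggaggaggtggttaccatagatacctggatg
Gstp1: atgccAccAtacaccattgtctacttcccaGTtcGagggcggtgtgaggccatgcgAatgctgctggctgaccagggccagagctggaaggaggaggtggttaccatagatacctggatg
Gstp3: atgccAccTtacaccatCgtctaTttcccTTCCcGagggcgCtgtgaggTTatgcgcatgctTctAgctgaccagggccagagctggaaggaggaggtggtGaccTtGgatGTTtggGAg

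Gstp1 differed from Gstp2 at 6 of these 120 bases and Gstp3 at 22. Decimals followed this sharing. Gsta1, Gsta2 and Gstp2 had decimals and shared between 24.8% and 81.8% of their stretches, whereas the 6 members with whole counts in both libraries shared at most 13.8% (Gstm3). Gsta3, Gsta4, Gstm4 and Gstp3 shared none, and Gstm1 shared 6.17%. Among all genes deposited, 14.4% had decimals.

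**Figure D1:**
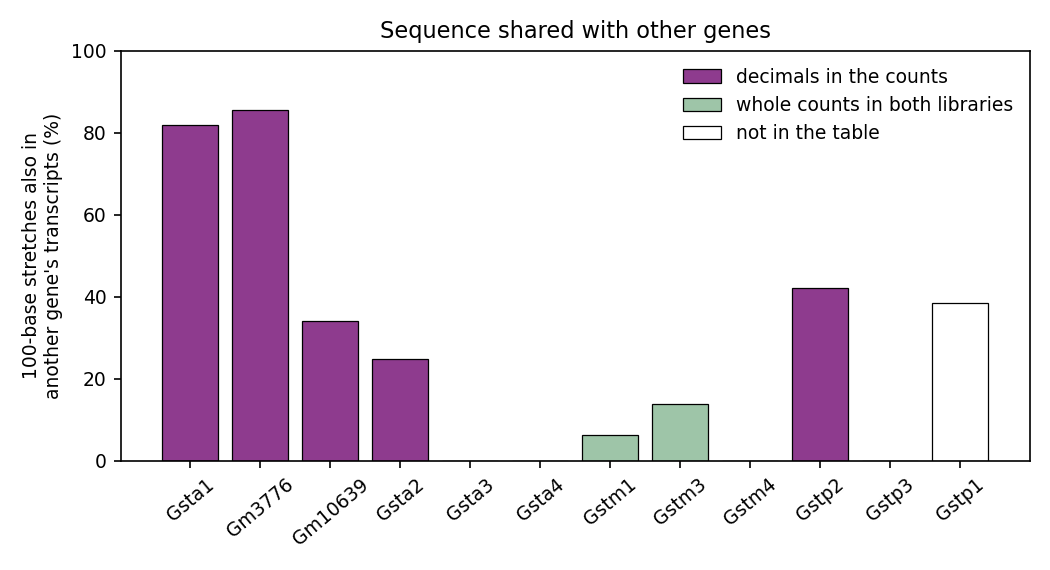
Share of distinct 100-base stretches in the protein-coding transcripts of each gene that also occur in transcripts of another gene (percent, y axis), with colour marking whether the deposited counts have decimals. Gsta1 and Gm3776 stand above 80%, Gstp2 at 42.2%, and no gene with whole counts exceeds 13.8%.

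All 9 transferases were higher in the AdipKO library than in the WT library by sign, and 8 of 9 were at least 2-fold higher on the log2(count + 1) scale. Of the 1448 genes deposited, 37.8% were higher by sign and 35.3% were at least 2-fold higher. The share lower by sign was 62.2%. If the labels were exchanged, all 9 members would be among the lower genes, which would then be 37.8% of the table. The members were drawn from a table that holds differing genes only, and their direction was known when they were chosen. The median log2 ratio of the members was 1.36, with a range from 0.97 to 4.26, against 1.48 over the 547 higher genes and -1.15 over all genes of the table. Counts of the 9 genes summed to 32376 in AdipKO organoids and 11898 in WT organoids, a ratio of 2.72 (2.66 to 2.78). They made up 4.70% of the listed counts in AdipKO organoids and 1.48% in WT organoids.

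**Figure D2:**
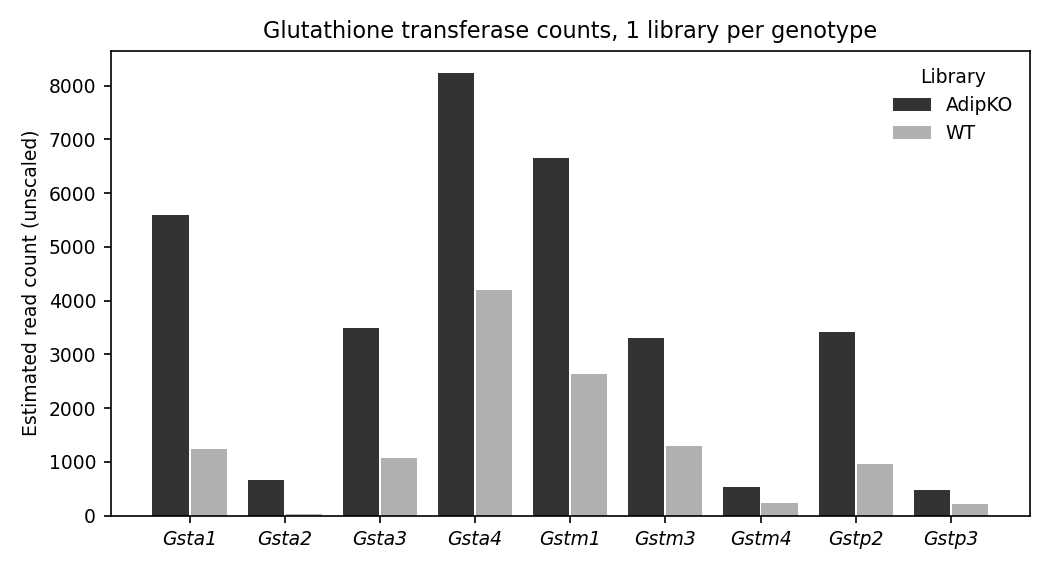
Estimated read count (unscaled, y axis) of each member in AdipKO organoids (dark bars) and WT organoids (light bars), 1 library each. The dark bar is the taller one for all 9 genes, and Gsta4 has the tallest bar in each library, at 8235 in AdipKO organoids and 4193 in WT organoids.

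Within the alpha class the ratios were uneven. Gsta4 (NCBI gene 14860), which conjugates the lipid peroxidation product 4-hydroxynonenal, had 8235 counts in AdipKO organoids and 4193 in WT organoids, 1.96-fold higher (1.89 to 2.04). It had the highest count of the members in both libraries and changed the least, and its ratio lay just above the smallest ratio of any higher gene in the table, 1.94. Gsta3, known in mice for conjugating the activated form of aflatoxin, was 3.26-fold higher (3.05 to 3.50), at 3497 counts in AdipKO organoids and 1072 in WT organoids. This gene (NCBI gene 14859) stands apart from the others of its class on chromosome 1, from 21240565 to 21265575. The values of Gsta3 and Gsta4 are whole counts, and neither gene shared a 100-base stretch with another gene.

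Gsta1 (NCBI gene 14857), an alpha class enzyme known to be inducible by antioxidants in mouse liver, had 5588.27 counts in AdipKO organoids and 1239.27 in WT organoids, 4.51-fold higher (4.24 to 4.80). Gsta2 (NCBI gene 14858) had 662.4 counts in AdipKO against 33.7 in WT, 19.7-fold higher (13.8 to 28.4), the third highest ratio of the table. Both ratios rest on divided reads, and their intervals do not cover the error of that division. The near-identical genes between them were higher as well. Gm3776 had 5896.42 counts in AdipKO against 1327.46 in WT, 4.44-fold higher (4.19 to 4.72), and Gm10639 had 147.91 in AdipKO against 18.57 in WT, 7.97-fold higher (4.82 to 13.3). The values of Gsta1, Gm3776, Gm10639 and Gsta2 summed to 12295 in AdipKO organoids and 2619 in WT organoids. These sums were whole to within 0.005 in each library, and of the 11 ways to add at least 2 of the 4 genes no other gave a whole sum in both. The 4 genes together were 4.69-fold higher (4.50 to 4.90), a ratio that does not depend on how reads were divided among them. Gsta2 took a small part of that sum despite its ratio. Gsta2 and Gm10639 added together had 810.31 counts in AdipKO against 52.27 in WT, 15.5-fold higher (11.8 to 21.0). Within the sum of 4, Gsta2 took 5.39% in AdipKO organoids (4.99 to 5.80) and 1.29% in WT organoids (0.901 to 1.81, exact binomial intervals). Gsta1 took 45.5% in AdipKO organoids (44.6 to 46.3) and 47.3% in WT organoids (45.4 to 49.2).

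Ratios between genes of the same libraries do not depend on library depth, which allows members to be compared with each other. The AdipKO over WT ratio of Gsta2 was 4.36 times that of Gsta1 (3.04 to 6.32) and 10.0 times that of Gsta4 (7.01 to 14.5). That of Gsta1 was 1.38 times that of Gsta3 (1.26 to 1.52), and that of Gsta3 was 1.66 times that of Gsta4 (1.54 to 1.80). No interval among the 6 alpha pairs held 1. The makeup of the class differed in turn: Gsta4 gave 45.8% of the alpha counts in AdipKO organoids (45.1 to 46.5) and 64.1% in WT organoids (63.0 to 65.3), while Gsta1 gave 31.1% in AdipKO organoids (30.4 to 31.8) and 19.0% in WT organoids (18.0 to 19.9). These shares hold for the deposited division of reads and without the copies, since Gsta1 and Gm3776 together had 11484.69 counts in AdipKO organoids and 2566.73 in WT organoids, above Gsta4 in AdipKO and below it in WT. The class sum was 17982.67 counts in AdipKO against 6537.97 in WT, 2.75-fold higher (2.67 to 2.83). With Gm3776 and Gm10639 added it was 24027 in AdipKO against 7884 in WT.

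The mu class genes were even. They lie on chromosome 3, Gstm3 (NCBI gene 14864) from 107963696 to 107969174, Gstm1 (14862) from 108012250 to 108017973 and Gstm4 (14865) from 108030571 to 108045179, and all had whole counts. Gstm1, an abundant mu class enzyme, had 6655 counts in AdipKO organoids and 2642 in WT organoids, 2.52-fold higher (2.41 to 2.64). Gstm3 had 3306 counts in AdipKO against 1288 in WT, 2.57-fold higher (2.41 to 2.74), and the weakly counted Gstm4 had 535 in AdipKO against 241 in WT, 2.22-fold higher (1.90 to 2.60). Gstm4 was the least counted gene of the class in both libraries. The ratio of Gstm3 was 1.02 times that of Gstm1 (0.941 to 1.10), and the ratio of Gstm1 was 1.13 times that of Gstm4 (0.964 to 1.33), so the counts did not separate them. The shares of the class were also close, with Gstm1 at 63.4% in AdipKO organoids (62.5 to 64.3) and 63.3% in WT organoids (61.9 to 64.8). These genes were less alike than the alpha copies, since Gstm1 and Gstm3 were identical at 89.5% of coding bases and Gstm1 and Gstm4 at 80.8%. The class sum was 10496 in AdipKO against 4171 in WT, 2.52-fold higher (2.43 to 2.61).

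The pi class genes differed from each other. They are neighbours on chromosome 19, with Gstp2 (NCBI gene 14869) from 4040288 to 4042221 and Gstp3 (225884) from 4057470 to 4059605. Gstp2 had 3422.15 counts in AdipKO organoids and 962.86 in WT organoids, 3.55-fold higher (3.31 to 3.82). Gstp3 had 475 in AdipKO against 226 in WT, 2.10-fold higher (1.79 to 2.47), in whole counts. The ratio of Gstp2 was 1.69 times that of Gstp3 (1.41 to 2.02). Gstp2 gave 87.8% of the summed counts in AdipKO organoids (86.7 to 88.8) and 81.0% in WT organoids (78.6 to 83.2). Since Gstp1 was not analysed here, no sum over the reads that Gstp2 shares with it can be formed. The summed ratio of the class was 3.28 (3.07 to 3.50), 1.30 times that of the mu class (1.21 to 1.40) and 1.19 times that of the alpha class (1.11 to 1.28). The ratio of the alpha class was 1.09 times that of the mu class (1.04 to 1.14). This order of the classes depends on single members, and the intervals do not cover the error of dividing reads. With Gm3776 and Gm10639 added, the log2 ratio of the alpha sum was 1.61 in place of 1.46, against 1.71 for the pi class. By the median of the members the log2 ratio was 1.94 for the alpha class, 1.45 for the pi class and 1.33 for the mu class. Without the most abundant gene of each class (Gsta4, Gstp2 and Gstm1), the log2 ratio of the sum was 2.06 for the alpha class, 1.33 for the mu class and 1.07 for the pi class, which was then the lowest.

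**Figure D3:**
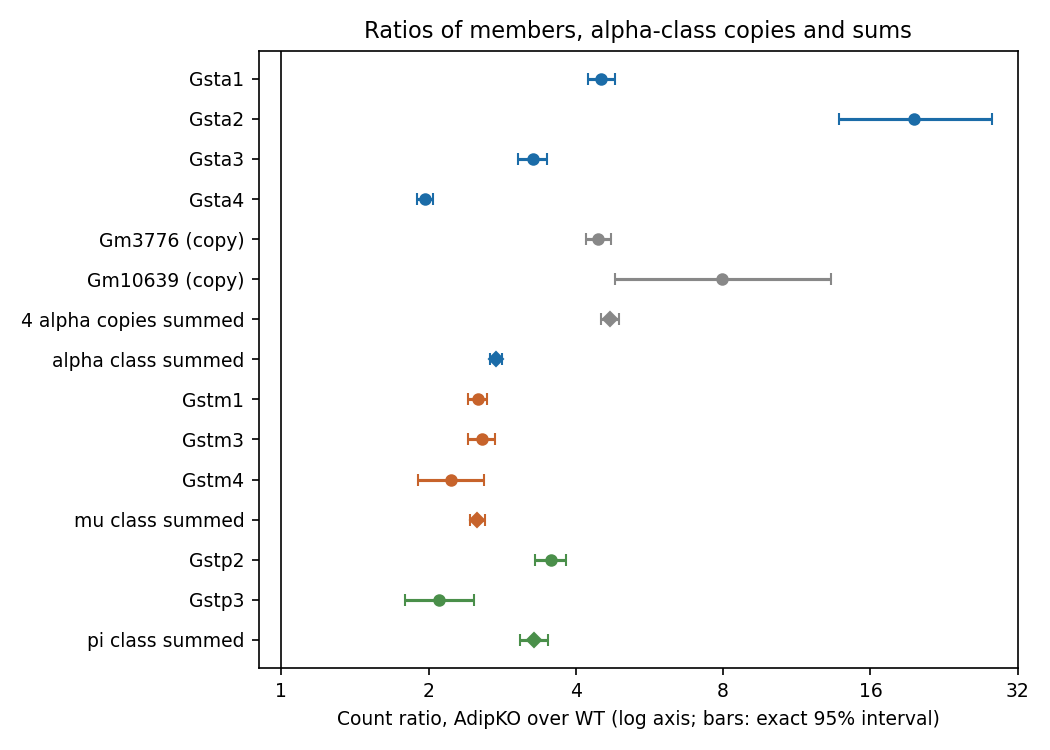
Ratio of counts, AdipKO over WT (log x axis), for each member, for the alpha class copies Gm3776 and Gm10639, and for sums (diamonds), with exact 95% intervals from counting error. The mu class points lie together between 2.22 and 2.57, whereas the alpha class points run from 1.96 for Gsta4 to 19.7 for Gsta2.

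Ordered by ratio over all 9 members, Gsta2, Gsta1, Gstp2, Gsta3, Gstm3, Gstm1, Gstm4, Gstp3 and Gsta4 followed each other from the largest to the smallest. Of the 8 neighbouring pairs in this order, 5 were not separated by their counts: Gstp2 and Gsta3, Gstm3 and Gstm1, Gstm1 and Gstm4, Gstm4 and Gstp3, and Gstp3 and Gsta4. Only Gsta1 and Gsta2, both with divided reads, were at least 4-fold higher, and 9.94% of the genes of the table were. Ratio and abundance ran differently. Per kilobase of the longest protein-coding transcript, Gsta4 was the highest in both libraries, at 8429 counts in AdipKO organoids and 4292 in WT organoids. Gsta1 had 6387 in AdipKO against 1416 in WT per kilobase and Gsta2 had 761 in AdipKO against 38.7 in WT. Gsta2 was the lowest of the 9 in WT organoids and seventh in the AdipKO library, where Gstm4 was the lowest at 313. Order per kilobase depends on the transcript model, and with the median transcript length Gstm1 and Gstp2 stood above Gsta1 in both libraries, whereas with the longest Gsta1 stood above Gstm1 in AdipKO organoids and below it in WT organoids.

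**Figure D4:**
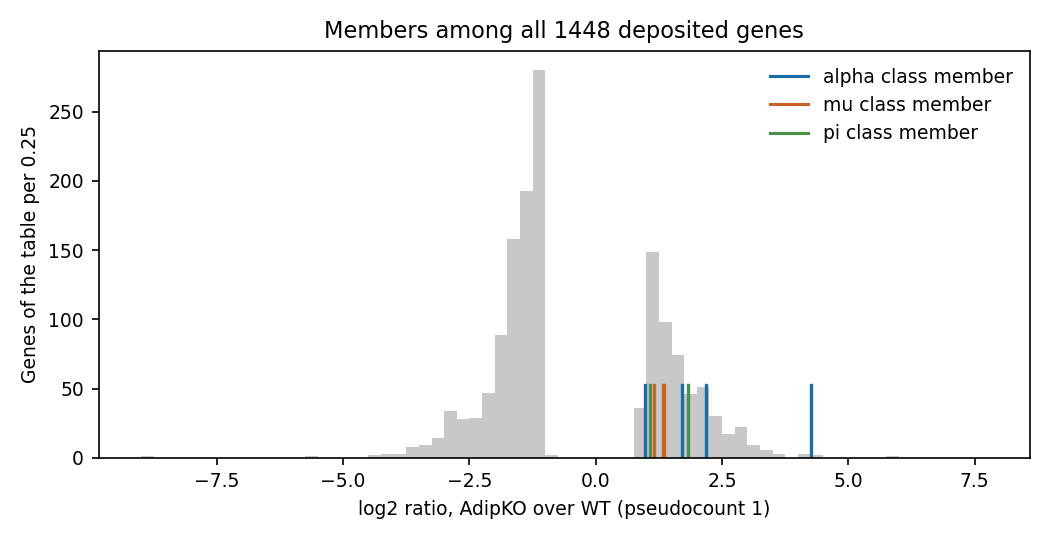
Histogram of the log2 ratio, AdipKO over WT with a pseudocount of 1 (x axis), for all 1448 genes of the table, with a coloured line at each member. The gap around 0 shows the selection of the table, and all 9 lines lie to its right, 8 of them between 0.97 and 2.17 and Gsta2 at 4.26.

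Promoter sequence was examined because the members shared a direction, which was known when they were chosen. RefSeq promoters (GRCm38.p6) were found for 8 of the 9 members, and Gsta4 had no entry. In the 250 bases before the start, the antioxidant response element core, the motif bound by NRF2 (TGACNNNGC, either strand), was present in 1 of these 8 members and in 10.2% of all promoters. It stood in Gsta3, 121 bases before the start. The AP-1 element (TGANTCA, either strand), which can overlap the NRF2 motif, was present in 1 of 8, Gstp2, 89 bases before the start, and in 6.75% of all promoters. The xenobiotic response element core (GCGTG, either strand) was present in Gsta2, Gstm1 and Gstp3, that is 3 of 8, and in 28.2% of all promoters. Among promoters of the genes deposited, the shares of these motifs were 10.1%, 6.89% and 35.7%, in the same order. Among promoters of the higher genes alone they were 13.9%, 8.76% and 31.9%. Members were counted per gene, and the other shares per promoter. Shown are the promoters of Gsta3 (chr1:21240335-21240584, plus strand) and Gstp2 (chr19:4042222-4042471, minus strand), with the antioxidant response element core and the AP-1 element in capitals.

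Gsta3: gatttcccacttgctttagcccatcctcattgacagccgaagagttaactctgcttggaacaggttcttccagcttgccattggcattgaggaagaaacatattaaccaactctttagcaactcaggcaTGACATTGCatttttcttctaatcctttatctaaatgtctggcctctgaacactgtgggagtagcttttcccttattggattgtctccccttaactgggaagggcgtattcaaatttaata
Gstp2: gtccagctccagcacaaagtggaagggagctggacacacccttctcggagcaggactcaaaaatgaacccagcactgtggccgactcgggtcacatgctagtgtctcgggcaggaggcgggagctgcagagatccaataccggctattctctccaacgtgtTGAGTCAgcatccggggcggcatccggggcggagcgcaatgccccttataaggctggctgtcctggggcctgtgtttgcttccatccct

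A match of letters is not a bound site, and elements farther from the start lie outside these windows. The shares of members with each motif rest on 8 genes, and nothing about a factor follows from them.

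Other steps of glutathione metabolism were listed in part. Counts of higher genes in this and the following lists are to be read beside the table. There 37.8% of genes were higher by sign and 35.3% at least 2-fold higher. Of 24 other transferase genes, which included the theta, omega, zeta, kappa and microsomal classes, 2 were listed and both were higher. Hpgds, a sigma class enzyme that makes prostaglandin D2, had 73 counts in AdipKO organoids and 22 in WT organoids, 3.32-fold higher (2.04 to 5.61). Gsto2, of the omega class, had 17 in AdipKO against 5 in WT, and the other 22 genes were not analysed here. Of 15 genes for glutathione synthesis and reduction, 4 were listed and all 4 were higher, 3 of them by at least 2-fold, with a median log2 ratio of 1.08. Txnrd3, a thioredoxin-glutathione reductase that was not among the 15, was lower, at 173 in AdipKO against 376 in WT. Cth, which makes cysteine from cystathionine, had 4341 counts in AdipKO against 1216 in WT, 3.57-fold higher (3.35 to 3.81). Slc7a11, the cystine importer, was 2.18-fold higher (2.06 to 2.30), Me1, an NADPH-producing enzyme, 2.05-fold (1.82 to 2.32), and Gclm, the modifier subunit of glutamate-cysteine ligase, 1.96-fold (1.82 to 2.11). No gene was listed of the 16 glutathione peroxidase, glutaredoxin and glyoxalase genes chosen. Of glyoxalase-like genes outside those 16, Glod5 was higher (586 in AdipKO against 262 in WT) and Haghl was lower (63.33 in AdipKO against 141.36 in WT).

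Downstream of conjugation, 2 of 11 efflux pump genes were listed, both higher. Abcc2, an apical exporter of glutathione conjugates, had 4550 counts in AdipKO organoids and 2210 in WT organoids, 2.06-fold higher (1.96 to 2.17), and Abcb1a was 2.71-fold higher (2.61 to 2.82) in divided reads. Of 19 genes for glutathione breakdown and mercapturate formation, 4 were listed, all higher, 3 by at least 2-fold, with a median of 1.20. Chac1, which degrades glutathione, had 588 counts in AdipKO against 230 in WT, 2.56-fold higher (2.19 to 2.99). Oplah, which opens the 5-oxoproline left by that reaction, had 402.95 in AdipKO against 184 in WT. Nat8f5 had 45 in AdipKO against 18 in WT, and Nat8, an acetyltransferase of the mercapturate route, had 26 in AdipKO against 13 in WT, a ratio of 2 whose interval held 1 (0.991 to 4.24).

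Among 24 genes of the NRF2 pathway outside glutathione metabolism, 5 were in the table. Of these 4 were higher and 1 was lower by sign, and the median log2 ratio was 1.02. Cbr3, a carbonyl reductase, had 2712 counts in AdipKO organoids and 399 in WT organoids, 6.80-fold higher (6.12 to 7.57). Nqo1, a quinone reductase often used as an NRF2 readout, had 2385 in AdipKO against 425 in WT, 5.61-fold higher (5.06 to 6.24). These were the largest differences of the list. Osgin1, an oxidative stress response gene, was 2.03-fold higher (1.67 to 2.49). Ftl1, the ferritin light chain, was 1.97-fold higher (1.94 to 2.01) in divided reads. Nfe2l3, a relative of NRF2, was the lower gene, at 15 in AdipKO against 43 in WT. Nfe2l2, which encodes NRF2, and Keap1, its repressor, were not in the table and were not analysed here. All 3 listed of 12 xenobiotic receptors and partners were higher, with a median of 1.37. They were Nr1i3, the receptor CAR, with 117.24 counts in AdipKO against 27.37 in WT in divided reads, Nr1h4, the bile acid receptor, with 580 in AdipKO against 224 in WT, and Hnf4g with 1124 in AdipKO against 507 in WT. These lists were compiled with earlier results of the data known, and their medians are to be read beside 1.48 for all higher genes of the table.

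**Figure D5:**
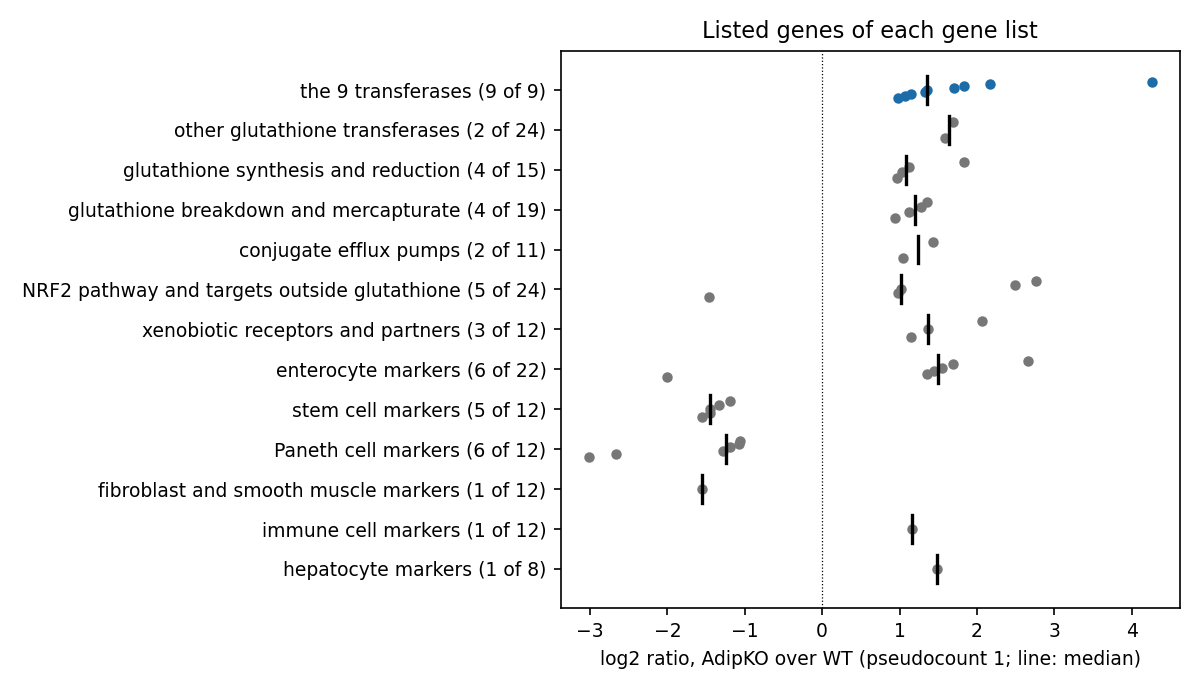
Log2 ratio, AdipKO over WT with a pseudocount of 1 (x axis), of each listed gene in each gene list (rows, with listed and total numbers), and its median as a line. All points of the transferases and the other glutathione lists lie right of 0, and the stem and Paneth cell markers lie left of it.

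Some markers of cell type moved with the transferases and others against them. Of 22 enterocyte markers 6 were in the table, 5 of them higher and 1 lower. Their median log2 ratio was 1.50, with summed counts of 6466 in AdipKO organoids and 2073 in WT organoids. Sis, which encodes sucrase-isomaltase, had 4435 counts in AdipKO against 1377 in WT, 3.22-fold higher (3.03 to 3.42), beside 3.26-fold for Gsta3. The peptidase gene Enpep (258 in AdipKO against 40 in WT) was also higher, and the lower gene was Lct, the lactase gene, with 8 in AdipKO against 35 in WT. Markers of absorptive cells thus mostly ran with the transferases, and those of the crypt base ran against them. The 5 listed of 12 stem cell markers were all lower, at 40586 summed counts in AdipKO against 109499 in WT. The study reported all of these markers but Axin2 as raised in organoids lacking epithelial adiponectin. Among them Lgr5 had 3127 in AdipKO against 7858 in WT, Olfm4 34083 in AdipKO against 92810 in WT, Axin2 2181 in AdipKO against 5979 in WT, Ascl2 174 in AdipKO against 511 in WT and Tnfrsf19 1021 in AdipKO against 2341 in WT. Also lower were the 6 listed of 12 Paneth cell markers, at 30465 summed counts in AdipKO against 66088 in WT, most of which came from the lysozyme gene Lyz1 (16698 in AdipKO against 34709 in WT). The others included the defensins Defa22 and Defa21, Mptx2 and the matrix protease Mmp7 (1817 in AdipKO against 4167 in WT). Defining markers of small intestinal epithelium were therefore counted in both libraries. Of the markers of other cells, Vim was the 1 listed of 12 for fibroblasts and smooth muscle (109 in AdipKO against 322 in WT), Itgam the 1 of 12 for immune cells (57 in AdipKO against 25 in WT) and Alb the 1 of 8 for hepatocytes (155 in AdipKO against 55 in WT). No marker of these lists was listed at a count of 0 in either library. Base composition also differed between higher and lower genes of the table, with median transcript GC of 49.8% for higher genes and 54.1% for lower genes, and the members had a median of 52.0% (47.5% to 55.9%). The part of cell makeup or base composition in the transferase ratios was not tested.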

How the data were processed

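RNA of AdipKO and WT organoids, 1 library each, was sequenced at BGI on the MGISEQ-2000 with 100-base paired-end reads, per the study's methods. Those methods name FPKM as the measure of level. The authors deposited estimated counts of reads per gene, not FPKM, for 1448 genes that differ by about 2-fold or more. The build was mm10 per the submitters' processing notes, while the sources used here gave no aligner, counter, annotation or strand setting. Library totals were not analysed here, so counts were not scaled. Depth is unknown, and the counts set the precision of each ratio.

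Log2 ratios (AdipKO over WT) used a pseudocount of 1, and genes were counted at a 2-fold threshold. Ratios of counts, without a pseudocount, were given exact (Clopper-Pearson) 95% intervals after rounding to whole counts, and ratios between members exact conditional intervals (SciPy 1.17.1, Python 3.11.15). Reads are not independent molecules, so intervals cover counting error only. The interval code was tested on simulated data. Gene positions came from RefSeq (GRCm38.p6, the assembly of mm10), which matched 1436 of 1448 gene IDs. Transcripts came from GENCODE M21 and were compared by distinct 100-base stretches on both strands.

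The members and lists were chosen with earlier results of these data known. Named genes were all members, up to 4 listed genes of each list by absolute log2 ratio, and other transferase symbols. The genes Gm3776 and Gm10639 were chosen after their values were seen. A gene that the rule names is not reported here. Ftl1, Tnfrsf19, Lyz1, Mycl, Txnrd3, Glod5 and Haghl fall outside that rule and were named after their values were seen. Alternatives covered pseudocounts of 0.1 and 5, scaling, a 4-fold threshold, low counts, divided reads and the most abundant members.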

Additional observations from a re-analysis of the deposited data

How the results depend on the processing

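No alternative changed the direction of a value. The table left little room for such a change, since no raw log2 ratio lay between -1.04 and 0.96 and scaling shifted them by at most 0.22. Of 81 alternative values, 57 stayed within the counting interval or within 1.5 times the count, and 24 moved. A 4-fold threshold left 2 members in place of 8. Making the listed totals equal shifted every log2 ratio by 0.22 and gave class sums of 1.68 (alpha), 1.55 (mu) and 1.93 (pi), a median of 1.58 for the members, and medians of 1.30 for glutathione synthesis, -1.22 for stem cell and -1.02 for Paneth cell genes. Centring the gap on 0 gave 1.50 for the alpha class. The median of members in place of the sum gave 1.94 for the alpha and 1.45 for the pi class. Without the most abundant member, the log2 sum ratio was 2.06 without Gsta4 (alpha, 1.46 with it) and 1.07 without Gstp2 (pi, 1.71 with it), and the pi class, the highest by sum, was then the lowest. Members with whole counts alone had a median of 1.24. Using the mean gave 1.24 for glutathione synthesis, 1.12 for enterocyte and -1.71 for Paneth cell genes. Adding Gm3776 and Gm10639, chosen after seeing the data, gave 1.61 for the alpha class. The number of libraries, 1 per genotype, sets the limit: culture-to-culture variation was not measured.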

Other observations

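Within 500 kb of the 4 member loci RefSeq has 97 other protein-coding genes, of which 9 were listed, 6 higher and 3 lower in the AdipKO library. Besides Gm3776 and Gm10639 of the alpha locus, the higher ones were Psrc1, a microtubule regulator of mitosis beside the mu locus, with 1989 counts in AdipKO organoids and 964 in WT organoids, Pcx, the pyruvate carboxylase gene beside the pi locus, with 472 in AdipKO against 196 in WT, Clcf1 with 48 in AdipKO against 24 in WT, and Khdc1a near Gsta3 with 22 in AdipKO against 7.54 in WT. The lower ones were Atxn7l2 with 31 in AdipKO against 98 in WT and Csf1, a macrophage growth factor, with 33 in AdipKO against 80 in WT, both beside the mu locus, and Aldh3b2 beside the pi locus with 1 in AdipKO against 13 in WT. These genes were chosen after their values were seen.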
